A study of Mus musculus with 12 samples.

Results

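The myogenic regulatory factors are 4 paralogous transcription factor genes, Myod1 (ENSMUSG00000009471), Myog (ENSMUSG00000026459), Myf5 (ENSMUSG00000000435) and Myf6 (ENSMUSG00000035923), and they were taken by name from the 55416 genes of a count table. Their proteins are basic helix-loop-helix (bHLH) factors that pair with E proteins and bind the E-box CANNTG at muscle genes. Myf5 and MyoD, the product of Myod1, commit cells to the muscle lineage and are made in dividing myoblasts. Myogenin, the product of Myog, is switched on as myoblasts begin to differentiate, and MRF4, the product of Myf6, is best known from late differentiation and adult fibres. The kinase p38 alpha, encoded by Mapk14, phosphorylates E proteins, MEF2 factors and the chromatin subunit BAF60c, and is known to promote the activity of MyoD in differentiating myoblasts.

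RNA was sequenced from C2C12 cells, a mouse skeletal myoblast line that can form myotubes, in 4 groups of 3 libraries. Cells labelled Mapk14 knockout (KO) in differentiation medium (DM, 2% horse serum), WT cells in the same DM, KO-labelled cells kept in growth medium (GM, 10% fetal bovine serum) and WT cells kept in GM were all sampled at 5 days. All cells had first been grown in GM, and the GM groups stayed in it until sampling. Whether the KO-labelled cells were 1 clone or several, and how the gene was edited, is not given in the sources used here, so a difference between the genotype labels cannot be told apart from a difference between clones.

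Mapk14 was not lower in the KO-labelled libraries. It averaged 89.5 ± 4.67 CPM (counts scaled to library size) in KO DM and 91.3 ± 2.59 CPM in WT DM, and 134 ± 3.58 CPM in KO GM and 124 ± 14 CPM in WT GM (SD, n = 3 each). The log2 difference was -0.03 ± 0.08 in DM and 0.11 ± 0.08 in GM (SE, edgeR adjusted p = 0.822 and 0.35). The KO label does not show in the RNA level of its own gene, so every direction given below for KO against WT is a direction between labels. Counts per gene do not show whether part of the transcript is missing. Library totals were 8821669 to 11536396 counts. Replicates 3 of both GM groups stood apart: chi-square per degree of freedom against the other libraries of their group was 9.9 to 14.94, and 3.58 to 6.44 between all other replicates. The factors, their ratios, the counts over gene lists and the differences of responses were also computed without both, and those values are given where a call changes or a count moves by over 1.5 times. Other values of single genes and the likeness between genes were not computed without them. Skeletal muscle markers were present in every library: none of 8 was at 0, and their summed level was 3720 to 4220 CPM in KO DM, 8170 to 8370 in WT DM, 856 to 1180 in KO GM and 2300 to 2920 in WT GM.

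Promoter sequence was matched for 2 of the 4 genes, Myog and Myf5, in RefSeq (GRCm38.p6), and not for Myod1 and Myf6. The 250 bases before each start are shown for these 2 genes because only they were matched. Capitals mark, in the order printed, an E-box (CANNTG), the letters TCAGGTT known as a MEF3 motif, the letters CTANNNNTA with A or T at each N known as a MEF2 motif, and a second E-box. Myog lies on the plus strand, chr1:134289754-134290003, and Myf5 on the minus strand, chr10:107486135-107486384, both 5′ to 3′ on the gene's own strand.
Myog: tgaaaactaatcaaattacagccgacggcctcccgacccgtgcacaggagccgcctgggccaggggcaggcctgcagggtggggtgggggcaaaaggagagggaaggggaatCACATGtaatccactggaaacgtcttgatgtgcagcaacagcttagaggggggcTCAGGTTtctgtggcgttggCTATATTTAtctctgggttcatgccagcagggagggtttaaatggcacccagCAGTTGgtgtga
Myf5: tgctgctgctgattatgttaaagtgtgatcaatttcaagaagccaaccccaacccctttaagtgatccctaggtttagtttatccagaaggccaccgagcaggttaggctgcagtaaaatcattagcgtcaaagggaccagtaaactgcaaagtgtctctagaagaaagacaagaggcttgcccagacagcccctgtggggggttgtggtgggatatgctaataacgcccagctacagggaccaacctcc
In the Myog window the E-boxes CACATG and CAGTTG lie at -138 to -133 and -12 to -7, TCAGGTT at -84 to -78 and CTATATTTA at -64 to -56, counted from the transcription start. None of these 3 motifs was found in the Myf5 window on either strand. Of 32851 RefSeq promoter windows of 250 bases, 66.2% held at least 1 E-box, 31.8% held at least 2, 3.27% held the CTANNNNTA motif and 3.49% held TCAGGTT or its complement, with no overlap between motifs in the Myog window. These matches describe the letters only.

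Myog, the gene of the differentiation factor, was the most variable of the 4 between groups. Its level was 316, 294 and 287 CPM in KO DM, 658, 592 and 595 CPM in WT DM, 31.4, 16.8 and 45.9 CPM in KO GM, and 127, 143 and 220 CPM in WT GM. The 4 groups did not overlap, and their order from the lowest was KO GM, WT GM, KO DM and WT DM. Both GM groups were spread widely, with a coefficient of variation of 46.4% in KO GM and 30.3% in WT GM, against 5.02% in KO DM and 6.06% in WT DM. The highest GM library of each label was replicate 3.

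Myod1 moved over a narrower range. It was at 132, 126 and 111 CPM in KO DM, 150, 169 and 146 CPM in WT DM, 62.6, 68.0 and 64.5 CPM in KO GM, and 138, 135 and 111 CPM in WT GM. KO GM was the one group set far below the rest, WT DM was the highest, and KO DM overlapped WT GM. Between KO DM and WT GM the log2 fold change was -0.05 ± 0.09 (SE, edgeR adjusted p = 0.663), so these neighbours in the order did not differ beyond their spread.

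Myf5 separated by genotype label more than by medium. It was at 4.86, 4.39 and 4.83 CPM in KO DM, 25.5, 28.3 and 26.2 CPM in WT DM, 3.44, 5.55 and 5.94 CPM in KO GM, and 17.9, 16.9 and 21.7 CPM in WT GM. All 6 KO-labelled libraries were below all 6 WT libraries, the KO groups overlapped each other, and WT DM was above WT GM. A single KO-labelled library held 32 to 67 counts of Myf5 and a single WT library 157 to 277.

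Myf6 was at or near 0 in every group. It had 0 counts in each KO DM library, 0, 2 and 0 counts in WT DM, 0 counts in each KO GM library, and 0, 3 and 1 counts in WT GM, which made 6 counts in all. A count of 0 over a group allows up to 0.0956 CPM in KO DM and 0.0933 CPM in KO GM, taking 3 counts as the limit. The sums of 2 in WT DM and 4 in WT GM have exact 95% Poisson intervals of 0.242 to 7.22 and 1.09 to 10.2 counts, which cover counting error only. At this depth no difference of Myf6 between groups was detectable, and it was the 1 member of 4 that did not pass the filter on low counts and was not tested.

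**Figure D1:**
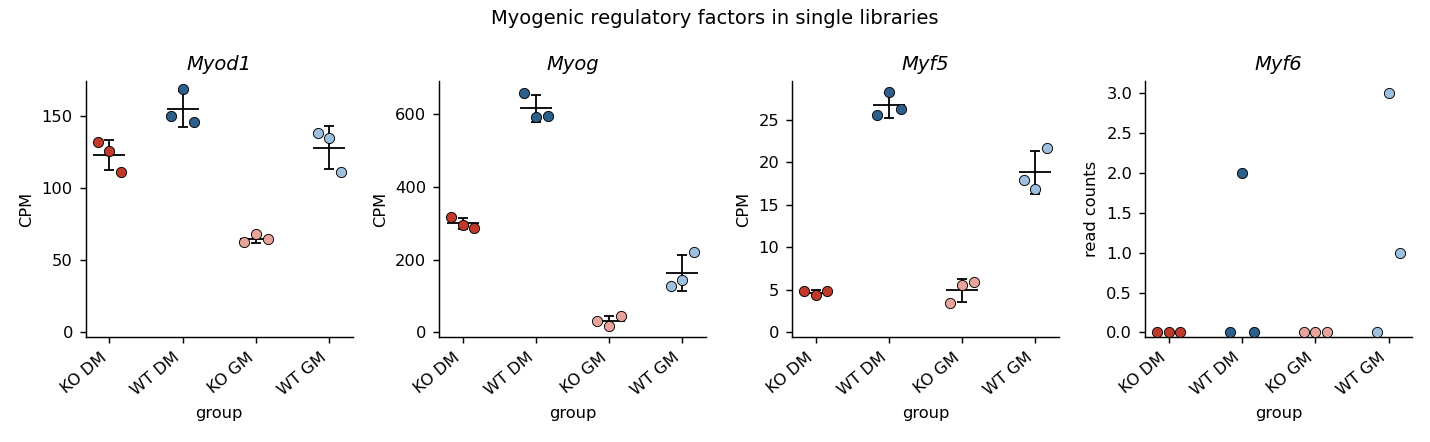
Level of each factor in single libraries (points) for KO DM, WT DM, KO GM and WT GM, in CPM with the group mean and SD (bars, n = 3), and as raw counts for Myf6. Myog runs from 16.8 CPM in a KO GM library to 658 CPM in a WT DM library, Myf5 splits the KO-labelled from the WT libraries, and Myf6 reaches at most 3 counts.

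Per kilobase of transcript, the levels of the genes can be set side by side. In KO DM, Myog was at 192 to 212 CPM per kb, Myod1 at 59.9 to 70.7 and Myf5 at 2.11 to 2.33. In WT DM, Myog was at 411 ± 24.9 CPM per kb, Myod1 at 83.2 ± 6.56 and Myf5 at 12.8 ± 0.704. In KO GM, Myod1 led with 34.9 ± 1.46 CPM per kb, with Myog at 21.0 ± 9.74 and Myf5 at 2.39 ± 0.647. In WT GM, Myog was at 109 ± 33.1 CPM per kb, Myod1 at 68.6 ± 7.99 and Myf5 at 9.03 ± 1.21 (SD, n = 3 each). Myod1 was above Myog in all 3 KO GM libraries and below it in the other 9. Lengths come from the single GENCODE vM21 transcript of each gene (GRCm38), another build than the GRCm39 of the count table.

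The mix of the factors followed from these levels. Myog made up 74.5% of the summed per-length level in KO DM, 81.0% in WT DM, 34.9% in KO GM and 57.6% in WT GM. Myod1 made up 24.6% in KO DM, 16.4% in WT DM, 61.0% in KO GM and 37.5% in WT GM. Myf5 contributed 0.84% in KO DM, 2.53% in WT DM, 4.13% in KO GM and 4.84% in WT GM. The summed level itself was 269 CPM per kb in KO DM, 507 in WT DM, 58.3 in KO GM and 187 in WT GM, so the Myog share was larger in the groups with the larger sum.

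Ratios within a library do not depend on the scaling between libraries. The ratio of Myog to Myod1 per length was 2.99, 2.9 and 3.21 in KO DM, 5.46, 4.37 and 5.08 in WT DM, 0.623, 0.308 and 0.887 in KO GM, and 1.15, 1.32 and 2.47 in WT GM. No pair of groups overlapped. The log2 ratio was higher in DM than in GM by 2.45 ± 0.45 in KO-labelled cells and by 1.67 ± 0.35 in WT cells, and the KO minus WT difference was -0.71 ± 0.10 in DM and -1.49 ± 0.56 in GM (SE, n = 3 each). Each of these 4 comparisons gave a 2-sided exact permutation p of 0.1, the smallest that 3 libraries against 3 can give, so none could pass 0.05.

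The ratio of Myf5 to Myod1 behaved differently. It averaged 0.0343 ± 0.00399 in KO DM, 0.154 ± 0.00593 in WT DM, 0.0681 ± 0.0172 in KO GM and 0.134 ± 0.0353 in WT GM (SD, n = 3 each). The KO-labelled libraries were below the WT libraries in both media, and KO DM was below KO GM. The log2 difference of KO minus WT was -2.16 ± 0.10 in DM and -0.97 ± 0.30 in GM, and that of DM minus GM was -0.96 ± 0.24 in KO-labelled cells (exact permutation p = 0.1 for each). Between WT DM and WT GM the libraries overlapped, with a log2 difference of 0.23 ± 0.21 (exact permutation p = 0.4). Adjusted over the 8 ratio comparisons, the p values of 0.1 became 0.114 and that of 0.4 stayed (exact permutation test, Benjamini-Hochberg).

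**Figure D2:**
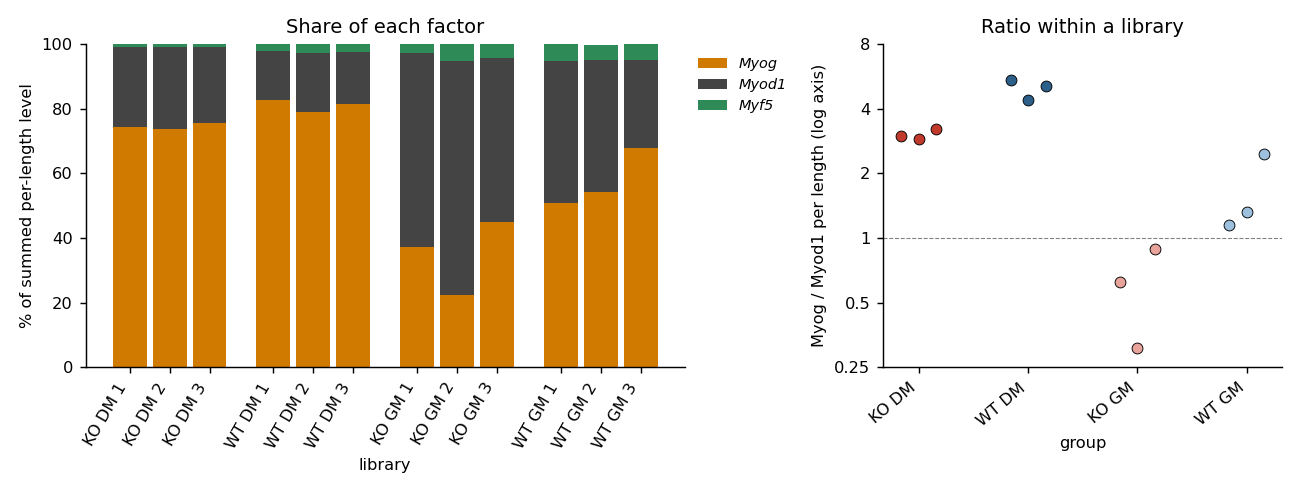
Left, share of Myog, Myod1 and Myf5 in the summed per-length level of the factors in each of 12 libraries, in percent. Right, ratio of Myog to Myod1 per length in single libraries (points, log axis, the dashed line marks equal levels), which is below 1 in KO GM and above 1 in every other library.

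Myog rose in DM under both genotype labels. In KO-labelled cells Myog was 299 ± 15 CPM in DM and 31.4 ± 14.6 CPM in GM, a log2 fold change of 3.26 ± 0.34 (edgeR adjusted p = 8.51e-05). Myod1 rose with it, at 123 ± 10.4 CPM in DM and 65.0 ± 2.72 CPM in GM (0.92 ± 0.09, edgeR adjusted p = 3.11e-08). Myf5 was not called, at 4.69 ± 0.265 CPM in DM and 4.97 ± 1.35 CPM in GM (-0.10 ± 0.20, edgeR adjusted p = 0.723). Thus 2 of the 3 tested members rose and none fell, where 20.8% of the 13250 genes tested rose and 19.8% fell. In bulk RNA, more differentiated cells and more Myog RNA per cell cannot be told apart.

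In WT cells all 3 tested members rose in DM, where 18.4% of the genes tested rose and 14.8% fell. Myog was 615 ± 37.3 CPM in DM and 163 ± 49.5 CPM in GM (1.91 ± 0.31, edgeR adjusted p = 0.00169). The changes of the commitment factors were smaller. Myf5 was 26.7 ± 1.47 CPM in DM and 18.8 ± 2.52 CPM in GM (0.50 ± 0.15, edgeR adjusted p = 0.0104), and Myod1 was 155 ± 12.2 CPM in DM and 128 ± 14.9 CPM in GM (0.28 ± 0.09, edgeR adjusted p = 0.0163). The Myod1 call ended without WT DM replicate 2 (0.20, adjusted p = 0.128), without WT GM replicate 3 (0.18, adjusted p = 0.0861) or without both GM replicates 3 (0.18, adjusted p = 0.0578), and ranged over all alternatives from adjusted p = 0.00336 to 0.128. The Myf5 call ended without WT DM replicate 2 (0.45, adjusted p = 0.0566) or WT GM replicate 2 (0.42, adjusted p = 0.0661; range over alternatives 0.00125 to 0.0661).

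All 3 tested members fell in the KO-labelled libraries in both media, where 17.4% of the genes tested fell and 13.6% rose in DM, and 10.6% fell and 10% rose in GM. In DM the widest difference was that of Myf5 (-2.50 ± 0.17, edgeR adjusted p = 1.92e-10), followed by Myog (-1.04 ± 0.31, edgeR adjusted p = 0.0325) and Myod1 (-0.33 ± 0.09, edgeR adjusted p = 0.00548). In GM the widest was that of Myog (-2.38 ± 0.34, edgeR adjusted p = 0.00129), followed by Myf5 (-1.90 ± 0.17, edgeR adjusted p = 2.64e-08) and Myod1 (-0.97 ± 0.09, edgeR adjusted p = 4.3e-08). No KO-labelled library overlapped a WT library of the same medium for any of the 3 genes.

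The call of the Myog difference in DM depended on which libraries entered the fit. With the 6 DM libraries alone it was -1.02 (edgeR adjusted p = 1.67e-14). Without any 1 of the 6 DM libraries it was -1.06 to -0.97 and no longer called (adjusted p = 0.0744 to 0.0991), and likewise with no filter on low counts (-1.01, adjusted p = 0.0559). Over all alternatives its adjusted p ran from 1.67e-14 to 0.0991. The Myod1 difference in DM was -0.25 and not called without KO DM replicate 3 (adjusted p = 0.0571) or WT DM replicate 2 (adjusted p = 0.0593; range over alternatives 0.000321 to 0.0593).

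The response to DM differed between the labels for Myod1. Its response in KO-labelled cells exceeded that in WT cells by 0.64 ± 0.12 on the log2 scale (edgeR adjusted p = 0.00246), the 1 member of 3 called higher in this test, where 3.61% of the genes tested were called higher and 5.25% lower. For Myog the difference of responses was 1.34 ± 0.45 (edgeR adjusted p = 0.111), and for Myf5 it was -0.60 ± 0.25 (edgeR adjusted p = 0.133). The Myog value was called by DESeq2 (1.35, adjusted p = 0.0418), by limma-voom (1.43, adjusted p = 0.00854), without robust dispersion (1.34, adjusted p = 0.0171), without KO GM replicate 3 (1.76, adjusted p = 0.0256) and without both GM replicates 3 (1.5, adjusted p = 0.0141), and its adjusted p over all alternatives ran from 0.00854 to 0.209. The Myf5 value was called without KO GM replicate 1 (-0.78, adjusted p = 0.0463; range over alternatives 0.0463 to 0.301).

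Set against WT cells that had stayed in GM, KO-labelled cells in DM had more Myog (0.87 ± 0.31, edgeR adjusted p = 0.0477), less Myf5 (-2.0 ± 0.17, edgeR adjusted p = 3.65e-09) and the Myod1 level given above. These were 2 called members of 3, where 45.7% of the genes tested were called in either direction. The Myog call in this comparison ended in 10 of 23 alternatives, with values of 0.73 to 1.16 over all of them (adjusted p = 0.000918 to 0.14).

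**Figure D3:**
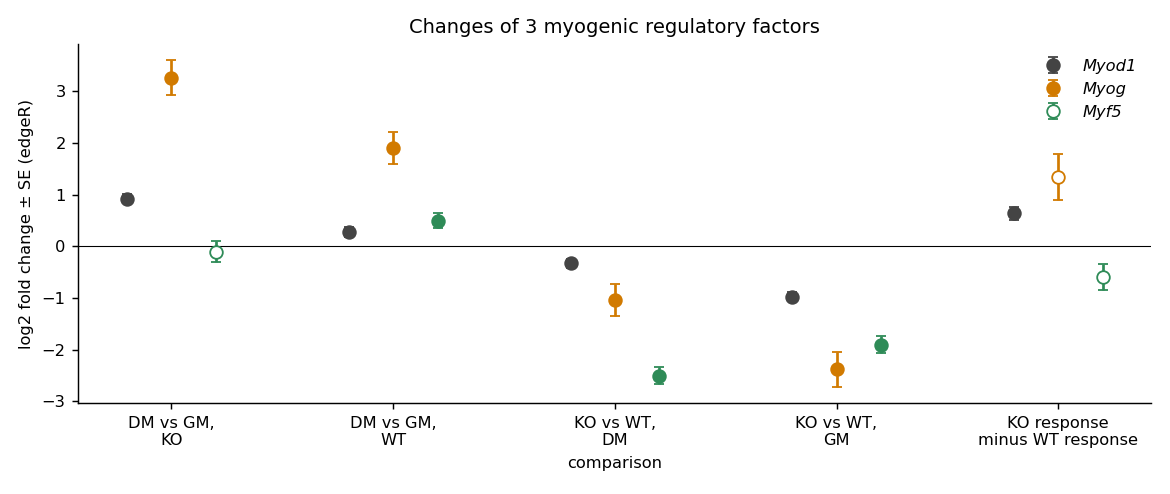
log2 fold changes with SE from edgeR for Myod1, Myog and Myf5 in 5 comparisons; filled points have adjusted p below 0.05 and open points do not. Myog has the widest response to DM, Myf5 has the widest KO against WT difference in DM (-2.50), and Myod1 is the one filled point for the difference of responses.

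Myogenic factors act as pairs with E proteins and are held back by Id, Hes, Hey, Twist and related bHLH proteins. Of 28 genes of partners and antagonists, among them the zinc finger genes Snai1, Snai2, Zeb1 and Zeb2 and the inhibitor genes Mdfi and Mdfic, which are not bHLH genes, 21 were tested. In KO-labelled cells 8 rose and 6 fell in DM (median log2 fold change 0.03), and in WT cells 10 rose and 6 fell (median 0.16). Against WT, 2 rose and 9 fell in the KO-labelled DM libraries (median -0.09) and 1 rose and 7 fell in the GM libraries (median -0.27). The medians over all genes tested were between -0.02 and 0. Of all genes tested, 20.8% rose and 19.8% fell in DM in KO-labelled cells and 18.4% rose and 14.8% fell in WT cells, and against WT 13.6% rose and 17.4% fell in the KO-labelled DM libraries and 10% rose and 10.6% fell in GM. Among the 21 genes, 38.1% rose and 28.6% fell in DM in KO-labelled cells and 47.6% rose and 28.6% fell in WT cells, and against WT 9.52% rose and 42.9% fell in DM and 4.76% rose and 33.3% fell in GM. Without both GM replicates 3, 22 were tested, and against WT 4 rose and 9 fell in the KO-labelled DM libraries, beside 2399 and 2629 of all 13446 genes.

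No E protein gene was called between the labels. Levels of these and the following genes are means ± SD of 3 libraries. Tcf3, which encodes E47 and E12, was at 132 ± 12.7 CPM in KO DM, 138 ± 4.47 in WT DM, 138 ± 3.91 in KO GM and 137 ± 15.3 in WT GM and was called in none of the 4 comparisons of medium or label. Tcf4 rose in DM by 0.83 in KO-labelled cells (edgeR adjusted p = 7.27e-07) and by 0.59 in WT cells (edgeR adjusted p = 7.7e-05), and Tcf12 rose by 0.31 in KO-labelled cells (edgeR adjusted p = 0.00198) and was not called in WT cells (0.16, edgeR adjusted p = 0.0963). Between KO-labelled and WT libraries none of the 3 was called in either medium. In DM the KO-labelled libraries were still above the WT libraries without overlap for Tcf4 (0.24 ± 0.10) and Tcf12 (0.18 ± 0.07; SE, edgeR adjusted p = 0.0621 for each). For Tcf3 they overlapped in DM (-0.06 ± 0.08), as they did for all 3 genes in GM.

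The Id genes, whose products bind E proteins without binding DNA, differed from each other. Id1 was at 28.5 ± 1.48 CPM in KO DM, 27.6 ± 2.41 in WT DM, 51.2 ± 1.05 in KO GM and 82.5 ± 19.9 in WT GM, and fell in DM under both labels. Id2 was at 15.2 ± 2.14 CPM in KO DM, 25.1 ± 1.91 in WT DM, 41.1 ± 3.43 in KO GM and 38.4 ± 4.29 in WT GM, and also fell in DM under both labels. Id3 was at 156 ± 5.72 CPM in KO DM, 106 ± 2.84 in WT DM, 146 ± 11.8 in KO GM and 194 ± 13.7 in WT GM. Id3 fell in WT cells in DM (-0.87, edgeR adjusted p = 6.8e-09) and was not called in KO-labelled cells (0.10, edgeR adjusted p = 0.313), and the difference of these responses was 0.97 (edgeR adjusted p = 5.14e-06). In DM, Id3 was higher (0.56, edgeR adjusted p = 4.55e-06) and Id2 lower (-0.73, edgeR adjusted p = 0.000102) in the KO-labelled libraries.

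Some Notch-target and inhibitor genes were lower in the KO-labelled libraries, as Myf5 was. Heyl, a Notch target, was at 0.989 ± 0.231 CPM in KO DM, 13.5 ± 1.94 in WT DM, 0 counts in KO GM and 1.83 ± 0.514 CPM in WT GM, which made it at least 19.6-fold lower in KO GM than in WT GM when set against 3 counts over the group. Hey1 was at 1.12 ± 0.169 CPM in KO DM, 10.7 ± 0.885 in WT DM, 2.01 ± 0.163 in KO GM and 4.76 ± 0.895 in WT GM, and was lower in the KO-labelled libraries in DM (-3.24, edgeR adjusted p = 1.49e-09) and in GM (-1.23, edgeR adjusted p = 0.000687). Msc, which encodes the MyoD antagonist MyoR, was at 0.0338 ± 0.0585 CPM in KO DM, 4.36 ± 0.894 in WT DM, 0.0289 ± 0.05 in KO GM and 1.3 ± 0.546 in WT GM. Hes6, whose product relieves Hes1 repression, rose in DM under both labels (1.16 in KO-labelled and 1.00 in WT cells) and fell in the KO-labelled libraries (-0.56 in DM and -0.72 in GM). Mdfi, which encodes the MyoD-binding inhibitor I-mfa, stayed between 1.32 and 1.97 CPM and was not called.

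Of 35 genes of factors that act on the promoters or enhancers of the myogenic regulators 24 were tested. In DM 13 rose and 2 fell in KO-labelled cells (median 0.30), and 11 rose and 2 fell in WT cells (median 0.32). These were 54.2% and 8.33% in KO-labelled cells, beside 20.8% and 19.8% of all genes, and 45.8% and 8.33% in WT cells, beside 18.4% and 14.8%. Against WT, 2 rose and 8 fell in the KO-labelled DM libraries (median -0.11), and 1 rose and 5 fell in GM (median -0.17). The 8 that fell in DM were 33.3% of those tested, beside 17.4% of all genes, and the 5 in GM were 20.8%, beside 10.6%. Those that rose were 8.33% in DM and 4.17% in GM, beside 13.6% and 10% of all genes. Without both GM replicates 3 the counts against WT were 3 and 8 in DM and 1 and 8 in GM. Of all 13446 genes tested in that fit, 2399 rose and 2629 fell in DM, and 1606 rose and 1749 fell in GM. The MEF2 genes were unlike each other. Mef2c was at 1.18 ± 0.558 CPM in KO DM, 75.1 ± 8.3 in WT DM, 0 counts in KO GM and 9.18 ± 4.73 CPM in WT GM, which made it at least 98.4-fold lower in KO GM than in WT GM, and its fitted difference in DM was -5.98 (edgeR adjusted p = 1.26e-05). Mef2a was at 248 ± 9.7 CPM in KO DM, 243 ± 4.73 in WT DM, 105 ± 9.25 in KO GM and 115 ± 16.7 in WT GM, with no call between labels.

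The satellite cell factor gene Pax7 was at 15.8 ± 1.34 CPM in KO DM, 20.4 ± 1.38 in WT DM, 16.5 ± 3.14 in KO GM and 24.0 ± 0.831 in WT GM, and fell in the KO-labelled libraries in DM (-0.37, edgeR adjusted p = 0.0376) and in GM (-0.54, edgeR adjusted p = 0.00445). Pax3 was under 1 CPM throughout and was not tested. Tead4 and Tead2, which encode partners of the Vgll and Yap cofactors, fell in the KO-labelled DM libraries, Tead4 by 1.11 and Tead2 by 1.66 on the log2 scale (edgeR adjusted p = 1.16e-06 and 2.1e-09). Klf5 fell in the KO-labelled libraries in DM (-0.46, edgeR adjusted p = 0.000556) and rose in GM (0.49, edgeR adjusted p = 0.000468).

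All 37 genes of cofactors and chromatin enzymes through which these factors act were tested. Against WT, 4 rose and 2 fell in the KO-labelled DM libraries and 4 rose and 4 fell in GM, with medians of -0.01 in DM and 0 in GM. Those that rose were 10.8% of the list in each medium and those that fell 5.41% in DM and 10.8% in GM, so the shares in GM were near the 10% and 10.6% of all genes. In DM 13.6% of all genes rose and 17.4% fell. Without both GM replicates 3 the counts against WT were 7 and 3 in DM and 5 and 8 in GM. Of all 13446 genes tested in that fit, 2399 rose and 2629 fell in DM, and 1606 rose and 1749 fell in GM. In DM, 7 rose and 3 fell in KO-labelled cells, and 8 rose and 9 fell in WT cells. These were 18.9% and 8.11% in KO-labelled cells, beside 20.8% and 19.8% of all genes, and 21.6% and 24.3% in WT cells, beside 18.4% and 14.8%. Without both GM replicates 3 the counts in KO-labelled cells were 8 and 6, beside 3264 and 2743 of all 13446 genes. Smarcd3, which encodes BAF60c, the p38 substrate that carries MyoD to chromatin remodelling complexes, was at 91.6 ± 6.24 CPM in KO DM, 101 ± 4.37 in WT DM, 75.3 ± 8.31 in KO GM and 94.1 ± 3.34 in WT GM. It fell in the KO-labelled GM libraries (-0.32, edgeR adjusted p = 0.00734) and was not called in DM (-0.13, edgeR adjusted p = 0.236). Kat2b, which encodes the acetyltransferase PCAF, rose in DM by 0.80 in KO-labelled and 0.54 in WT cells (edgeR adjusted p = 4.88e-06 and 0.000697), and Smarca2, a remodelling ATPase gene, was higher in the KO-labelled libraries by 0.60 in DM and 0.55 in GM (edgeR adjusted p = 0.000138 and 0.000655).

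Most genes described as targets of the myogenic factors moved in the direction of Myog in each comparison. Of 56 such genes 55 were tested. In DM, 52 rose and 0 fell in KO-labelled cells (median 3.17, or 3.06 with 3 genes at 0 counts in KO GM put at their bound), and 54 rose and 0 fell in WT cells (median 2.40). Against WT, 0 rose and 41 fell in the KO-labelled DM libraries (median -1.06), and 0 rose and 46 fell in GM (median -1.96, or -1.88 with those genes at their bound). Between media 94.5% of the targets rose in KO-labelled and 98.2% in WT cells, and against WT 74.5% fell in DM and 83.6% in GM. Of all genes tested, 20.8% rose and 19.8% fell in DM in KO-labelled cells and 18.4% rose and 14.8% fell in WT cells. Against WT 13.6% of all genes rose and 17.4% fell in DM, and 10% rose and 10.6% fell in GM. Without both GM replicates 3 the counts of targets were 53 higher and 1 lower, 54 and 0, 0 and 49, and 0 and 47, in the same order. Of all 13446 genes tested in that fit they were 3264 and 2743, 2837 and 2487, 2399 and 2629, and 1606 and 1749. The Myog values in these comparisons were 3.26, 1.91, -1.04 and -2.38. The difference of responses was called higher for 9 targets and lower for 1, which were 16.4% and 1.82% of those tested. Over all genes tested 3.61% were called higher and 5.25% lower. Without both GM replicates 3 it was called higher for 27 and lower for 1 of 55 targets. In that fit it was called higher for 1373 and lower for 1336 of all 13446 genes. With 1 replicate left out the difference of responses was called higher for 3 to 18 targets, with 3 without KO GM replicate 1, 4 without KO DM replicate 1, WT DM replicate 1 or KO GM replicate 2, 5 without KO DM replicate 3 or WT DM replicate 3 and 18 without KO GM replicate 3. The 1 lower target was Eno3, a muscle enolase gene (-0.41, edgeR adjusted p = 0.034), and no target was called lower in 9 of these 12 fits.

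The targets were not lowered evenly. Myh3, the embryonic myosin heavy chain gene, was at 64.8 ± 5.65 CPM in KO DM, 856 ± 32.8 in WT DM, 4.41 ± 2.61 in KO GM and 64.2 ± 32.5 in WT GM (KO against WT -3.72 in DM, edgeR adjusted p = 8.39e-05). Des, which encodes the intermediate filament desmin, was at 343 ± 29.6 CPM in KO DM, 1790 ± 28.5 in WT DM, 122 ± 21.1 in KO GM and 915 ± 72.9 in WT GM (-2.39 in DM, edgeR adjusted p = 3e-13). Acta1, the skeletal actin gene, was at 1820 ± 140 CPM in KO DM, 2710 ± 34.6 in WT DM, 140 ± 78.6 in KO GM and 478 ± 177 in WT GM, and was not called in DM (-0.58, edgeR adjusted p = 0.308) but fell in GM (-1.77, edgeR adjusted p = 0.015). The fusion gene Mymk was at 229 ± 17 CPM in KO DM, 379 ± 13.7 in WT DM, 17.1 ± 8.74 in KO GM and 60.4 ± 20.6 in WT GM, and was not called in DM either (-0.73, edgeR adjusted p = 0.0965). For both genes every KO DM library was still below every WT DM library (SE 0.38 for Acta1 and 0.29 for Mymk). These SEs come from the fit that also holds the widely spread GM libraries. With the 6 DM libraries alone 49 targets fell in DM rather than 41, and 36 to 46 with 1 replicate left out. The missing calls therefore do not show that Acta1 and Mymk were unchanged in DM. Among acetylcholine receptor genes, Chrna1 fell in the KO-labelled libraries by 0.66 in DM and by 0.57 in GM, and Chrnd by 0.90 in DM and by 1.84 in GM on the log2 scale (edgeR adjusted p at most 1.57e-05 for each). Ckm, the muscle creatine kinase gene whose enhancer carries paired E-boxes, was at 6.65 ± 0.591 CPM in KO DM, 31.2 ± 1.14 in WT DM, 0.395 ± 0.273 in KO GM and 3.42 ± 1.22 in WT GM. The cell cycle inhibitor gene Cdkn1a was at 605 ± 34.3 CPM in KO DM, 762 ± 41.2 in WT DM, 265 ± 8.46 in KO GM and 396 ± 26.8 in WT GM and fell in the KO-labelled libraries in both media (-0.33 in DM and -0.58 in GM).

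**Figure D4:**
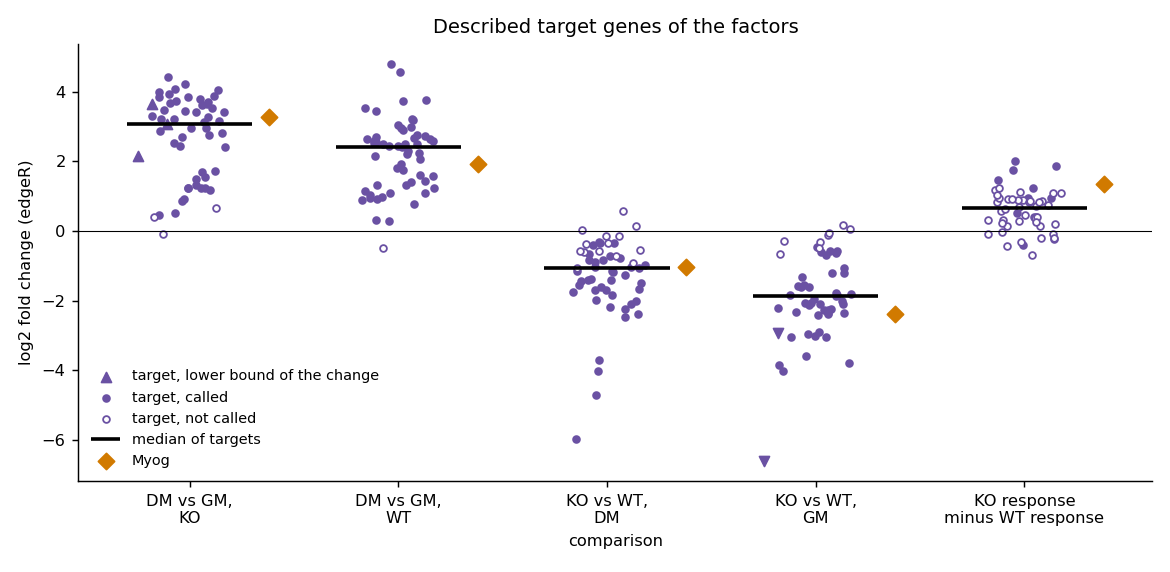
log2 fold changes of the described targets in 5 comparisons; filled points were called, open points were not, triangles are targets with 0 counts in KO GM drawn at their bound, and bars are medians. Diamonds show Myog, which lies on the same side of 0 as the median of the targets in each comparison; targets with 0 counts in KO GM are left out of the last column.

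Proliferation genes did not run opposite to Myog between media. All 16 were tested, and in DM 11 rose and 1 fell in KO-labelled cells (median 0.88) and 16 rose and 0 fell in WT cells (median 1.18). In KO-labelled cells these were 68.8% and 6.25% of the list, beside 20.8% and 19.8% of all genes tested. In WT cells 18.4% of all genes tested rose and 14.8% fell. Mki67 was at 100 ± 6.6 CPM in KO DM, 87.7 ± 10.2 in WT DM, 37.5 ± 1.89 in KO GM and 24.2 ± 10.6 in WT GM. Against WT, 3 rose and 0 fell in the KO-labelled DM libraries (5 and 2 without both GM replicates 3) and 8 rose and 0 fell in GM (11 and 1 without both), led by the replication genes Mcm5 (1.36, edgeR adjusted p = 1.96e-10) and Cdc6 (1.17, edgeR adjusted p = 1.2e-08). The 3 in DM were 18.8% of the list, beside 13.6% of all genes, and the 8 in GM were 50%, beside 10%. Of all genes 17.4% fell in DM and 10.6% in GM. Without both GM replicates 3, 2399 rose and 2629 fell of all 13446 genes in DM, and 1606 and 1749 in GM. The part of cell division in the levels of the myogenic factors was not tested.

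Markers of other cell types were low beside those of skeletal muscle, apart from smooth muscle markers, and some of the sums moved with the genotype label. The summed level of 6 smooth muscle markers, mostly Acta2 and Des, was 2020 to 2220 CPM in KO DM, 4460 to 4770 in WT DM, 1980 to 2040 in KO GM and 3340 to 3750 in WT GM. In GM it was above the sum of the skeletal muscle markers, 856 to 1180 CPM in KO GM and 2300 to 2920 in WT GM. Des was counted in both lists. Acta2 alone averaged 1780 CPM in KO GM and 2460 CPM in WT GM. Of the same list Myh11 had 16 counts and Myocd 2 counts over all 12 libraries. The summed level of 6 neural and Schwann markers was 6.32 to 7.28 CPM in KO DM, 50.2 to 50.7 in WT DM, 14.5 to 18.5 in KO GM and 45.2 to 54.6 in WT GM, almost all from Tubb3, with Sox10 and Snap25 at 0. Adipocyte markers summed to 31.9 to 34.8 CPM in KO DM, 36.6 to 40.8 in WT DM, 20.3 to 34.7 in KO GM and 45.0 to 49.0 in WT GM, with Adipoq and Cidec at 0, and osteoblast markers to 55.5 to 61.7, 55.2 to 61.5, 70.9 to 76.1 and 80.7 to 82.3 CPM in the same order, with Ibsp at 0. Cebpa made up most of the adipocyte sum and Runx2 most of the osteoblast sum. Epithelial markers, of which Epcam, Krt18 and Cldn4 were at 0, reached 13.4 to 14.4 CPM in KO DM and at most 4.9 CPM in any other group. In KO DM this epithelial sum was Krt14 alone (13.8 ± 0.52 CPM), with Cdh1 and Krt8 at 0. Leukocyte markers were at 11.2 to 20.9 CPM in all with Ptprc, Adgre1 and Cd3e at 0, and endothelial markers reached 1.33 CPM with Emcn at 0. The part of these genes in the differences of the myogenic factors was not tested.

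The factors were also described by the genes whose level over the 12 libraries was most like theirs, among 10317 genes with a mean of at least 5 CPM. These correlations rest on the same libraries, 4 groups and scaling, and are given as a description. For Myog the closest were Mymx, a fusion gene (Pearson r = 0.996), Trim54 (0.994), the fetal acetylcholine receptor gene Chrng (0.994), Actn3 (0.993) and Tnni1 (0.993). For Myod1 they were Abcg1 (0.978), Adarb1 (0.972), Arhgef2 (0.969), Igfbp5 (0.968) and Fam53b (0.964). For Myf5 they were Sulf1 (0.986), Tspan7 (0.985), F11r (0.984), Pla1a (0.984) and Vgll2 (0.982), none of which is a sarcomere gene. Between the members r was 0.90 for Myod1 and Myog, 0.68 for Myod1 and Myf5 and 0.57 for Myog and Myf5.

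The genes closest to Myf5 were chosen for likeness to it over these libraries, so a split by label like its own follows from the choice. Tspan7 and Vgll2 reached the mean of 5 CPM only through the WT groups. Tspan7 was at 0.031 ± 0.0536 CPM in KO DM, 25.2 ± 0.837 in WT DM, 0.0289 ± 0.05 in KO GM and 6.13 ± 1.4 in WT GM. Vgll2, a cofactor of TEAD proteins in muscle, was at 0.13 ± 0.0632 CPM in KO DM, 13.7 ± 1.83 in WT DM, 0.0296 ± 0.0512 in KO GM and 7.73 ± 0.857 in WT GM. Sulf1, a heparan sulfate sulfatase gene, was at 21.9 ± 1.56 CPM in KO DM, 105 ± 3.78 in WT DM, 25.3 ± 6.24 in KO GM and 86.3 ± 8.1 in WT GM. By contrast Igfbp5, chosen in the same way for likeness to Myod1, was at 660 ± 23.8 CPM in KO DM, 961 ± 75.5 in WT DM, 146 ± 42 in KO GM and 678 ± 34.3 in WT GM, low in KO GM alone.

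**Figure D5:**
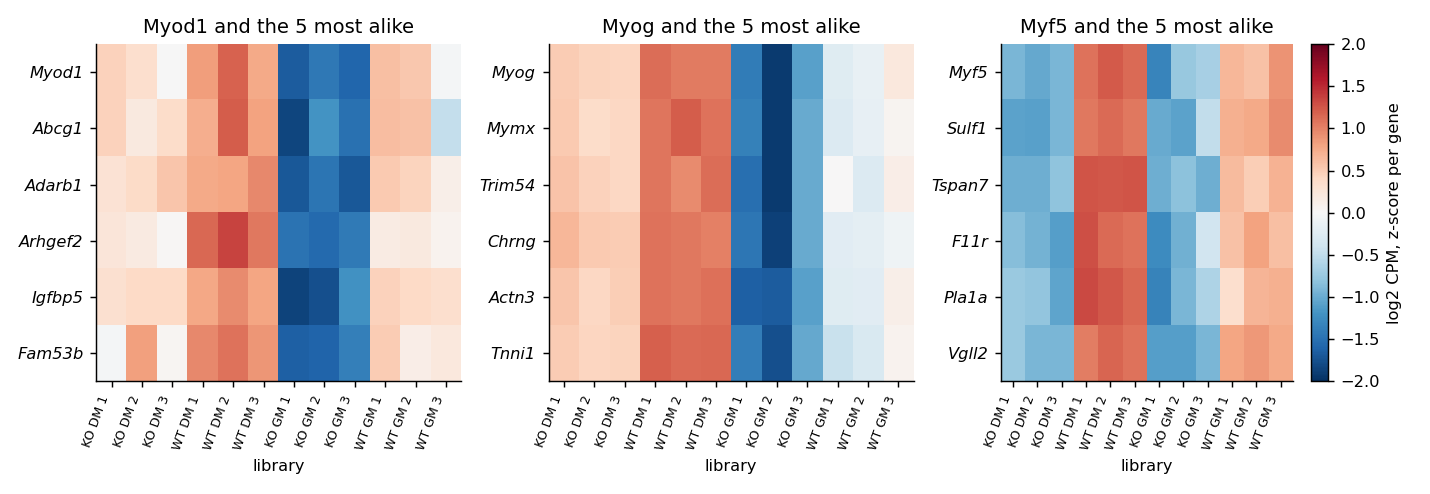
log2 CPM of Myod1, Myog and Myf5 with the 5 genes most like each, in 12 libraries, as z-scores per gene (colour). The block of KO GM libraries is low for Myod1 and Myog, and all 6 KO-labelled libraries are low for Myf5.

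Within groups, after taking each group's mean from its libraries, the likeness changed. Myog then followed Myom1 (r = 0.988), Tnni1 (0.985), Arpp21 (0.985), Cav3 (0.983) and Mylpf (0.982), again genes of the contractile apparatus and muscle membrane for the most part. Myod1 followed E4f1 (0.957), Ep400 (0.957), Tmem115 (0.955) and Pelp1 (0.947), none of which is specific to muscle. Myf5 followed Asb7 (0.979), Klhl30 (0.942), Ntn4 (0.942) and Tuba1a (0.929). Between Myod1 and Myog r was -0.47 within groups, with the opposite sign to that over all libraries, and it was -0.07 for Myod1 and Myf5 and 0.15 for Myog and Myf5. Myog varied within groups mainly in GM, with a coefficient of variation of 46.4% in KO GM and 30.3% in WT GM, against 5.02% in KO DM and 6.06% in WT DM. The values of r with Myog within groups therefore rest mostly on the GM libraries, whose replicates 3 stood apart.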

How the data were processed

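RNA of 12 libraries in 4 groups of 3 was measured by sequencing, in paired-end reads of Illumina libraries per the labels' protocols. The authors deposited whole-number counts per Ensembl gene, not normalized, for 55416 genes, 52083 of them with a symbol, and 4 empty columns were not used. The submitters' processing notes name DESeq2 1.40.2, RSEM 1.3.3, STAR 2.7.1a and R 4.3.1, with the genome build GRCm39. The sources used here do not say which tool made the counts, with which annotation release or strand setting, so reads of overlapping or antisense genes cannot be told apart. The labels give 1 batch for all libraries. They call the replicates biological but give no separate cultures or days, so p-values measure the spread between these samples, which may be technical.

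The 13250 genes kept by filterByExpr held 99.91% of the counts. They were fitted in R 4.3.3 with edgeR 4.0.16 (TMM factors, quasi-likelihood with robust dispersion, 1 mean per group over all 12 libraries). Contrasts were 2-sided, with Benjamini-Hochberg adjustment over all 13250 genes, and a gene was called below 0.05. The same step was tested on simulated data in which no library stood apart. That test therefore does not cover the effect of the GM replicates 3. CPM was computed from the counts and TMM-scaled library sizes. SE was taken as the log2 change over the root of edgeR's F. Within-library ratios used a pseudocount of 0.5 and an exact permutation test. The prior count for the log2 CPM behind the likeness was 2. The floor for a count of 0 was 3 counts. Alternatives were 3 other scalings, 2 other filters, non-robust dispersion, a replicate block, the 6 libraries compared, each replicate left out, DESeq2 1.42.0, limma-voom (limma 3.58.1) and, added after the data were seen, both GM replicates 3 left out.

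The members, the lists, the contrasts and the rule for named genes were chosen with earlier results of these data known. The rule took the members, Mapk14, up to 5 called genes of each list and contrast by size of change, given a mean of 5 CPM or more in any of the 4 groups, a panel of muscle regulators and targets, and the 5 genes most like each tested member by level and by deviation. The text names part of them, and values of some genes that the rule names are not reported here.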

Additional observations from a re-analysis of the deposited data

Results flagged for a closer look

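Genes of the lists and genes most like a factor had responses to DM that differed between the labels in edgeR's test of the difference, given here on the log2 scale as the KO response less the WT response. Of the factors Myod1 had 0.64 (adjusted p = 0.00246), with log2 responses of 0.92 in KO-labelled and 0.28 in WT cells. Among antagonists Id1 had 0.73, Id3 had 0.97, Id2 had -0.83, Hes1 had -0.76, Hey1 had -2.01 and Zeb2 had -0.42 (edgeR adjusted p from 5.14e-06 to 0.0229). Among upstream factors Eya1 had 0.98, Klf5 had -0.96, Tead2 had -0.74 and Tead4 had -0.74 (edgeR adjusted p from 9.22e-05 to 0.0257). Among cofactors Ezh2 had -0.73 and Ehmt2 had 0.40 (edgeR adjusted p from 0.00431 to 0.0193).

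Among described targets Chrnd had 0.94, Des had 0.52, Cdh15 had 0.40, Tmem182 had 0.96, Myl1 had 2.02, Ryr1 had 1.75, Musk had 1.23, Smyd1 had 1.45 and Trim63 had 1.86, and Eno3 had -0.41 (edgeR adjusted p from 0.00045 to 0.0451). Of the genes most like a member, Adarb1 had 0.53, Igfbp5 had 1.68, Trim54 had 1.80 and Klhl30 had 1.06 (edgeR adjusted p from 0.000853 to 0.00963). They were chosen for likeness to a member over the same libraries, so their responses add no separate evidence about that member. Of the proliferation genes Mcm5 had -0.93, Cdc6 had -1.29, Mcm2 had -0.79, Mcm6 had -0.70, Cdk1 had -0.50 and Pcna had -0.48 (edgeR adjusted p from 4.02e-06 to 0.0275), and the marker gene Tubb3 had -1.42 (edgeR adjusted p = 1.77e-05). Without both GM replicates 3 all 33 of these genes besides Myod1 were called with the same sign. That fit called more genes in all, 1373 higher and 1336 lower of 13446, beside 478 and 696 of 13250 in the main fit. With 1 replicate left out 693 to 1920 genes were called, and 3 to 18 described targets were called higher. Which of the genes named here kept their call in those fits was not computed.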

How the results depend on the processing

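Of 480 alternative values of the tested members 446 kept their direction and side of the threshold, and 4 values that were not called turned sign. Myod1 in KO in DM against WT in GM was at 0.01 without KO DM replicate 3 and 0.02 without WT GM replicate 1 (-0.13 to 0.02 with 1 replicate left out), and Myf5 in DM against GM in KO at 0.04 without KO GM replicate 3 (-0.29 to 0.04) and 0.06 without both GM replicates 3. The calls that ended were Myog KO in DM against WT in GM with no filter (0.89, adjusted p = 0.073), Myog KO against WT in DM with no filter (-1.01, adjusted p = 0.0559) and Myod1 DM against GM in WT without both GM replicates 3 (0.18), besides single replicates left out. Those gave 0.73 to 1.16 for Myog in KO in DM against WT in GM, -1.06 to -0.97 for Myog in KO against WT in DM, -0.36 to -0.25 for Myod1 in KO against WT in DM, 0.18 to 0.33 for Myod1 and 0.42 to 0.61 for Myf5 in DM against GM in WT. The Myog difference of responses became called without robust dispersion (1.34), with DESeq2 (1.35), with limma-voom (1.43) and without both GM replicates 3 (1.5). It ran from 1.05 to 1.76 with 1 replicate left out, and that of Myf5 from -0.78 to -0.45. The cause was not tested.

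The difference of responses was called for 1174 genes, for 693 to 1920 with 1 replicate left out and for 2709 without both GM replicates 3. Its 1 lower target was called lower in no fit with upper-quartile factors, total counts or non-robust dispersion, nor in 9 of 12 fits with 1 replicate left out.

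Samples of 1 number were weakly alike: 4 of 18 correlations of deviations were above 0.1 (-0.085 to 0.186). Their median was 0.048, beside -0.024 for samples of different numbers. Of the 12 libraries 9 correlated best with their own number, a hint of pairing from the data only. With the replicate block Myog was at 3.31 in DM against GM in KO and no call of a member changed. The block raised the number of called genes, from 4405 to 4786 in DM against GM in WT and from 1174 to 1587 for the difference of responses. Other scalings moved the median of all genes to at most 0.053. Myf6 gave no value, and the difference of responses cannot be fitted with 6 libraries. Depth limits Myf6 (6 counts) and Myf5 in KO-labelled libraries.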

Other observations

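Genes next to the factors in the RefSeq order, chosen after the data were seen and given as means ± SD of 3 libraries, moved in some cases as the factors did. Mybph, the neighbour but one of Myog, was at 371 ± 49.5 CPM in KO DM, 871 ± 16.5 in WT DM, 23.9 ± 12.5 in KO GM and 101 ± 48.5 in WT GM. Adora1, the neighbour on the same side, was at 10.2 ± 1.18 CPM in KO DM, 21.7 ± 2.08 in WT DM, 0.666 ± 0.502 in KO GM and 3.03 ± 1.52 in WT GM. Ppfia4, on the other side, was at 9.76 ± 1.07 CPM in KO DM, 27.4 ± 0.897 in WT DM, 1.05 ± 0.381 in KO GM and 3.72 ± 1.38 in WT GM. All 3 were called in DM against GM and in KO against WT, with edgeR adjusted p of at most 0.0374, and had the sign of Myog each time. The next gene, Tmem183a, was at 70.9 ± 1.96 CPM in KO DM, 88.8 ± 1.02 in WT DM, 72.7 ± 7.71 in KO GM and 84.5 ± 2.53 in WT GM and was called between labels only (-0.33 in DM and -0.22 in GM).

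Beside Myod1, Otog was at 8.74 ± 1.48 CPM in KO DM, 18.7 ± 1.45 in WT DM, 1.28 ± 0.808 in KO GM and 3.27 ± 1.35 in WT GM and was called in all 4 comparisons, while Sergef stayed between 7.82 and 8.62 CPM with no call. Near Myf5 and Myf6, Ppp1r12a was at 75.2 ± 5.25 CPM in KO DM, 90.5 ± 9.19 in WT DM, 73.5 ± 3.48 in KO GM and 77.9 ± 5.01 in WT GM, and was lower in the KO-labelled DM libraries (-0.27, edgeR adjusted p = 0.0189), as Myf5 was. Among genes of low level there, Ppfia2 was at 2.84 ± 0.598 CPM in KO DM, 0.173 ± 0.0501 in WT DM, 0.675 ± 0.369 in KO GM and 0.0343 ± 0.0594 in WT GM, and mean levels of Acss3 were 2.88, 0.133, 0.891 and 0.235 CPM in the same order. Ppfia2 and Acss3 were both higher in the KO-labelled DM libraries (3.93 for Ppfia2 and 4.25 for Acss3, edgeR adjusted p = 1.43e-05 and 5.56e-05).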
